A study of Mus musculus with 6 samples.

Results

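The protein genes of the large ribosomal subunit were examined in 2-cell mouse embryos of the outbred ICR stock, named as a strain in the labels. The members are the 45 functional genes Rpl3 to Rpl41, Rplp0, Rplp1 and Rplp2, picked by gene symbol through their Ensembl identifiers, with pseudogenes left out; the deposited count table lists 29139 rows in all. The culture medium, KSOM, which suits embryos before implantation, held either 75 µM MS-444 (3 libraries) or 0.1% DMSO, the solvent (3 libraries). MS-444 is a compound reported as an inhibitor of HuR, an RNA-binding protein that stabilises many mRNAs. The labels name no transgene or mutation in either group, and they give neither the length of the culture nor the number of mothers. The protocol describes a lysate of 16 embryos. Nothing in the labels says that the replicates came from separate collections of embryos, so the p-values here speak only of the spread among these libraries.

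The large subunit holds the peptidyl transferase centre, where amino acids are joined, and the tunnel through which the new chain leaves. Its proteins are made in the cytoplasm, imported into the nucleolus and assembled onto ribosomal RNA, and most of their mRNAs belong to the TOP class: they begin with a C followed by a run of pyrimidines that places their translation under mTOR control. The mouse embryo inherits ribosomes and mRNAs from the oocyte, degrades many of the maternal mRNAs around the 2-cell stage, and starts its main wave of transcription there, ribosomal protein genes included.

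The start-site sequences of 6 members are shown because these genes span the range of responses given further on: Rpl38, Rpl41 and Rpl35 were higher in MS-444 embryos, while Rplp0, Rpl15 and Rpl27a did not pass the test. They were chosen after their values were seen. Each runs 5′ to 3′ on the gene's strand from 60 bases before the annotated start to 30 bases after it, from RefSeq promoters on GRCm38.p6. Capitals mark 4 kinds of match: a pyrimidine run at the start, CCGGAAG (the core bound by ETS factors such as GABP), GGGCGG or its complement CCGCCC (the GC box), and TATAAA (the sequence of the TATA box). In Rplp0 the TATAAA lies after the annotated start, so it is marked as a sequence match only.
Rpl38: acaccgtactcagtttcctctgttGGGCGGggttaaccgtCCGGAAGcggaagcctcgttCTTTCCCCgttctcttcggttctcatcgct
Rpl41: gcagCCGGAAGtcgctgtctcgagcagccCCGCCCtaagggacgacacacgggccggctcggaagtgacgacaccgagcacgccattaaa
Rpl35: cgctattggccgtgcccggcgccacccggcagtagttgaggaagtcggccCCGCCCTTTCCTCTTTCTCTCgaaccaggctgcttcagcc
Rplp0: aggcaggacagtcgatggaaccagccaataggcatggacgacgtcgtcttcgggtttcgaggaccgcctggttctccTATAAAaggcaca
Rpl15: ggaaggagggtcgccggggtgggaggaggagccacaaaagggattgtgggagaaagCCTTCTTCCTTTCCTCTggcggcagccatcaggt
Rpl27a: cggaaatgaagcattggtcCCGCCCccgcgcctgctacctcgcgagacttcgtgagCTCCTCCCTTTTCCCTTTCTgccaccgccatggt
These windows lie at chr11:114668520-114668609 on the plus strand for Rpl38, chr10:128549139-128549228 on the minus strand for Rpl41, and chr2:39005102-39005191 on the minus strand for Rpl35. Those of the others lie at chr5:115559407-115559496 on the plus strand for Rplp0, chr14:18270957-18271046 on the minus strand for Rpl15, and chr7:109519135-109519224 on the plus strand for Rpl27a. The run begins at position 0, the annotated start itself, in Rpl38, at -7 in Rpl35 and at -4 in both Rpl15 and Rpl27a. It is 8 bases long in Rpl38, 18 in Rpl35, where it shares bases with the GC box, 17 in Rpl15 and 20 in Rpl27a. In these windows of Rpl41 and Rplp0 no run of this kind lies near the annotated start.

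Library totals were between 2637763 and 3772141 counts in MS-444 libraries and between 2669918 and 4695866 in DMSO libraries. Mitochondrial genes took 4.44% to 5.27% of counts in MS-444 libraries and 3.22% to 3.86% in DMSO libraries, and at equal depth 20371 to 21243 genes were detected in MS-444 libraries against 18339 to 19337 in DMSO libraries. For the large subunit genes, 1 library in each group stood apart: MS-444 replicate 1 was the lowest of its group for 35 of the 45, and DMSO replicate 3 the lowest of its group for 37. MS-444 replicate 2 was the highest of all 6 libraries for 37 genes. The members' count, median and sum are therefore also given without single libraries; the group ratios and the medians by role and by length were computed with all 6 libraries only.

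The mRNAs of the large subunit were mostly higher in embryos cultured with MS-444. Of the 45 members, 43 had enough counts to be tested, and 26 of them rose, while 0 fell and 17 did not pass the test (edgeR quasi-likelihood test, Benjamini-Hochberg adjusted over 11864 genes, threshold 0.05). Over all genes tested, 14.4% were called higher and 11.1% lower, 25.5% in either direction. The log2 fold change of MS-444 over DMSO had a median of 1.41 over the tested members, against 0.02 over all genes tested. It ranged from -0.16 for Rpl17 to 3.24 for Rpl38, and was above 0 for 42 of 43. The 3 MS-444 libraries all lay above the 3 DMSO libraries for 28 members and below them for 0, where over all genes tested 23.0% lay above and 20.9% below. Of the tested members, 3 (Rpl38, Rpl36 and Rpl21) passed the filter on low counts only through the MS-444 libraries, in which they were high. The 40 that reached its minimum in all 6 libraries included 23 that rose and 0 that fell, with a median of 1.41; of the 9075 tested genes that did so, 11.3% rose, and their median was -0.088.

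**Figure D1:**
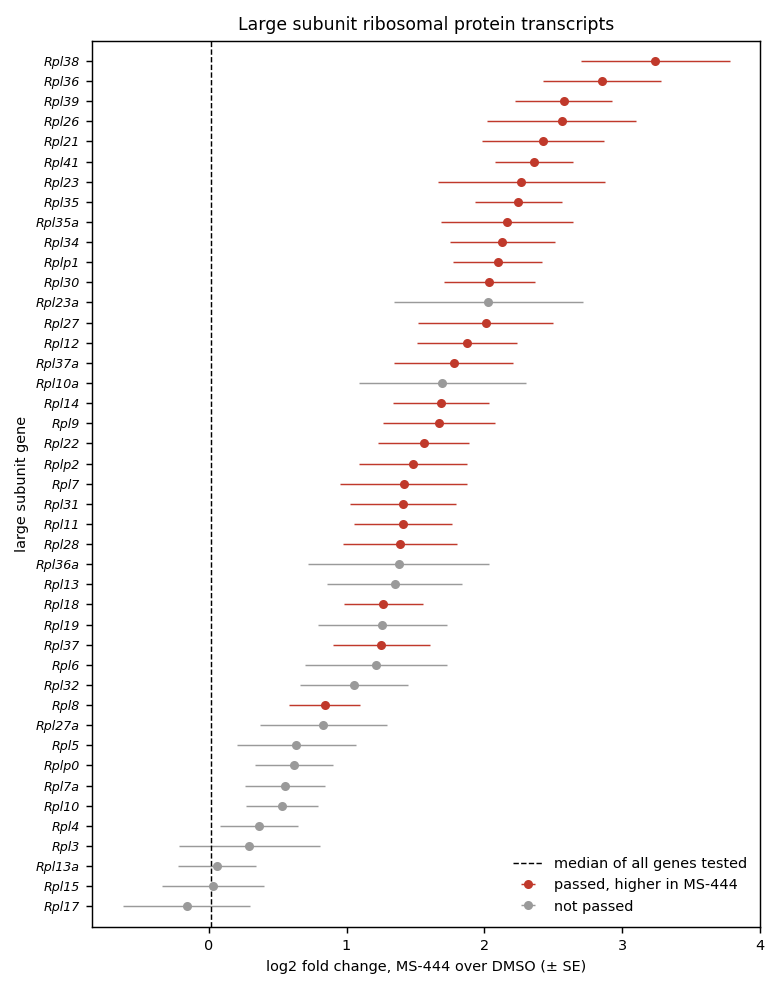
Log2 fold change of MS-444 over DMSO for each of the 43 tested large subunit genes, in order of size, with its standard error; red points passed the test and grey points did not, and the dashed line is the median of all genes tested, 0.02. The points run from 3.24 for Rpl38 down to -0.16 for Rpl17, and 26 are red.

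The count did not rest on the low MS-444 replicate 1: without it 25 members passed and the median was 1.65. It depended more on other libraries. Without DMSO replicate 3, 19 members passed with a median of 1.13, without MS-444 replicate 2, 12 passed with a median of 1.18, and without MS-444 replicate 3, 14 passed with a median of 1.41. Fewer calls were made over all genes as well. In the order just given, 7.1%, 5.23% and 5.57% of all genes tested were called higher, against 14.4% with all 6 libraries. The loss of calls was thus not particular to the members. With MS-444 replicate 1 dropped, that share was 10.1%. No member was called lower with any library left out. The libraries were of whole embryos, in which fewer cells with an mRNA and less of it per cell cannot be told apart.

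The lateral P stalk catches the GTP-hydrolysing translation factors that drive each step of elongation, and 3 of the 4 genes of the stalk and its base rose. Rplp1, one of its acidic tip proteins, had 170.0, 223 and 189.7 CPM (counts scaled to a common library size, after TMM scaling) in MS-444 libraries, against 26.4, 56.2 and 52.8 CPM in DMSO libraries. Every MS-444 library was over 3 times as high as the highest DMSO library, and the log2 fold change was 2.10 ± 0.32 (SE; edgeR adjusted p = 0.0038). Rplp2, its partner at the tip, had 139, 295 and 247 CPM in MS-444 libraries and 63.6, 128 and 51.5 CPM in DMSO libraries. The groups came close, MS-444 replicate 1 lying just above DMSO replicate 2, and the change was 1.49 ± 0.39 (adjusted p = 0.022); it did not pass without MS-444 replicate 2 or 3 or DMSO replicate 1 or 3 (1.18 to 1.41). Rpl12, a protein of the stalk base, rose by 1.87 (adjusted p = 0.0076). Rplp0, the trunk to which the tip proteins attach, had 1542, 1791 and 1198 CPM in MS-444 libraries against 1368, 892 and 695 CPM in DMSO libraries. Its groups overlapped through DMSO replicate 1, and its log2 fold change of 0.62 ± 0.28 did not pass (adjusted p = 0.13); only without that library did it pass (0.87, adjusted p = 0.047).

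Rpl5 and Rpl11 bind the ribosome's smallest RNA in the central protuberance, and both are known, when not built into ribosomes, to bind Mdm2 and so stabilise p53. Rpl11 had 134, 215 and 185 CPM in MS-444 libraries, against 60.8, 101 and 39.0 CPM in DMSO libraries. The groups did not overlap and the change was 1.41 ± 0.36 (adjusted p = 0.019), which did not pass without MS-444 replicate 2 or 3 or DMSO replicate 3 (1.09 to 1.36). Rpl5 was far scarcer, with 12.1, 6.27 and 9.46 CPM in MS-444 libraries and 8.40, 4.60 and 5.10 CPM in DMSO libraries. Its groups overlapped and its 0.64 ± 0.43 did not pass (adjusted p = 0.29).

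Among the 3 proteins that reach toward the peptidyl transferase centre, 1 rose, by little. Rpl8 had 158, 194 and 177 CPM in MS-444 libraries against 121, 99.2 and 75.5 CPM in DMSO libraries, a log2 fold change of 0.84 ± 0.26 (adjusted p = 0.037). This call was among the weakest: it was lost in 8 of the 20 other processings run, among them those without MS-444 replicate 1, 2 or 3 or DMSO replicate 2 or 3 (0.63 to 0.86), and with transcript length and GC content corrected for, the value was 0.16. Rpl10, in yeast and human cells among the last proteins to join the subunit, had 260.5, 306 and 239.7 CPM in MS-444 libraries, against 154, 247 and 156 CPM in DMSO libraries. Only MS-444 replicate 3 fell within the DMSO range, and 0.53 ± 0.26 did not pass (adjusted p = 0.16). Rpl3 had 51.3, 109 and 66.2 CPM in MS-444 libraries and 102, 65.6 and 18.6 CPM in DMSO libraries, widely overlapping, with 0.29 ± 0.51 (adjusted p = 0.69).

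Of the 8 genes for proteins of the exit tunnel and its rim, 5 rose, with a median log2 fold change of 1.79 over the 8. Rpl39, a very short protein that lines the lower tunnel, had 72.2, 128 and 92.4 CPM in MS-444 libraries against 18.4, 20.5 and 10.2 CPM in DMSO libraries. The lowest MS-444 library stood over 3 times above the highest DMSO library, and the change was 2.58 ± 0.35 (adjusted p = 0.0027). Rpl26, which in human cells also binds the p53 mRNA, had 68.5, 98.6 and 119.6 CPM in MS-444 libraries and 13.6, 29.9 and 4.59 CPM in DMSO libraries. The groups did not overlap, and the change was 2.56 ± 0.54 (adjusted p = 0.0099). Rpl35, at the rim where chaperones and the signal recognition particle dock, rose by 2.25 (adjusted p = 0.003), Rpl22 by 1.56 and Rpl31 by 1.41. Rpl23a, the docking protein next to the exit, reached 2.03 but did not pass (adjusted p = 0.052), with MS-444 replicate 1 at 19.4 CPM, inside the DMSO range.

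The other 2 tunnel proteins form its narrowest point. Rpl4 had 463, 442 and 308 CPM in MS-444 libraries against 429.8, 279 and 234 CPM in DMSO libraries, and its overlapping groups gave 0.37 ± 0.28 (adjusted p = 0.36). Rpl17 had 69.6, 232 and 182 CPM in MS-444 libraries and 204, 252 and 86.0 CPM in DMSO libraries. It was the 1 member with a value below 0, -0.16 ± 0.46 (adjusted p = 0.82), and its sign turned, to 0.029, when libraries were scaled by their totals. The genes of this group thus ranged from Rpl39 and Rpl26, among the members with the largest fold changes, to the member with the smallest.

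Rpl19, Rpl24 and Rpl41 bridge the large subunit to the small one. Rpl41, a peptide so small that it is almost wholly buried at that interface, had 622, 694 and 626 CPM in MS-444 libraries, against 119, 171 and 88.0 CPM in DMSO libraries. The means were 647 ± 40.4 CPM in MS-444 embryos and 126 ± 41.8 CPM in DMSO embryos (SD, n = 3 each), and the log2 fold change of 2.36 ± 0.28 had the smallest adjusted p of the members (edgeR, 0.0024). Rpl19 had 53.5, 132 and 97.1 CPM in MS-444 libraries and 45.2, 57.6 and 15.6 CPM in DMSO libraries, and its 1.26 ± 0.47 did not pass (edgeR adjusted p = 0.071). Rpl24, mutated in the Belly spot and tail mouse, had 0, 12 and 13 raw counts in MS-444 libraries and 0, 4 and 2 in DMSO libraries, too few to be tested. Rpl10a, the protein of the L1 stalk past which spent tRNAs leave, gave 1.70 ± 0.60 without passing (adjusted p = 0.061): MS-444 replicate 1, with 38.8 CPM, lay below DMSO replicate 1, with 46.8 CPM.

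The remaining 24 members sit elsewhere on the subunit; of the 23 tested, 15 rose and 8 did not pass, with a median of 1.41. Rpl38, whose loss in the tail-short mouse alters translation of Hox mRNAs, had 27.8, 14.9 and 10.9 CPM in MS-444 libraries against 3.20, 1.15 and 1.53 CPM in DMSO libraries. It was scarce in both groups but never overlapping, and the fitted change was 3.24 ± 0.54 (adjusted p = 0.005), which rests on 8, 5 and 6 raw counts in DMSO libraries. Rpl36 had 22.3, 32.9 and 26.7 CPM in MS-444 libraries and 2.40, 5.99 and 2.55 CPM in DMSO libraries, a change of 2.85 ± 0.43 (adjusted p = 0.0036). Rpl21 had 18.3, 18.8 and 17.7 CPM in MS-444 libraries and 5.997, 2.07 and 2.55 CPM in DMSO libraries, a change of 2.43 ± 0.45 (adjusted p = 0.0066). The 3 MS-444 values of Rpl21 were nearly equal, and no DMSO value of either gene came near its lowest MS-444 value. Rpl38, Rpl36 and Rpl21 reached the count minimum in fewer than 3 DMSO libraries and entered the test through the MS-444 libraries, where they were high, so their calls are no independent support.

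The other 12 members at these positions that rose did so by 1.25 to 2.27: Rpl23 (2.27), Rpl35a (2.17), Rpl34 (2.13), Rpl30 (2.04), Rpl27 (2.01), Rpl37a (1.78), Rpl14 (1.68), Rpl9 (1.67), Rpl7 (1.41), Rpl28 (1.39), Rpl18 (1.27) and Rpl37 (1.25). Rpl30 is known in yeast for binding its own transcript, and Rpl35a is, with Rpl5 and Rpl11, a gene mutated in the human anaemia Diamond-Blackfan. All 12 had no overlap between groups. Rpl36a (1.38), Rpl13 (1.35), Rpl6 (1.21), Rpl32 (1.06), Rpl27a (0.83) and Rpl7a (0.55) did not pass, although the groups of Rpl13 and Rpl7a did not overlap. Rpl36a is an example of wide spread within MS-444 libraries: MS-444 replicate 1 had 13.2 CPM and the other MS-444 libraries 73.5 and 59.7 CPM, against 18.0, 32.9 and 5.36 CPM in DMSO libraries. Rpl29 had 2, 18 and 28 raw counts in MS-444 libraries and 5, 9 and 2 in DMSO libraries and was not tested.

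Rpl13a and Rpl15 were at almost the same level in both groups. Rpl13a, which in human myeloid cells leaves the ribosome to silence inflammatory mRNAs, had 51.3, 74.7 and 75.5 CPM in MS-444 libraries against 58.0, 81.5 and 54.1 CPM in DMSO libraries. Its log2 fold change was 0.06 ± 0.28 (adjusted p = 0.90). Rpl15, a protein buried deep in the subunit, had 50.2, 142 and 116 CPM in MS-444 libraries and 129.9, 86.1 and 85.5 CPM in DMSO libraries, with 0.03 ± 0.37 (adjusted p = 0.95). The groups of both genes overlapped, and the sign of each turned under some of the other processings.

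**Figure D2:**
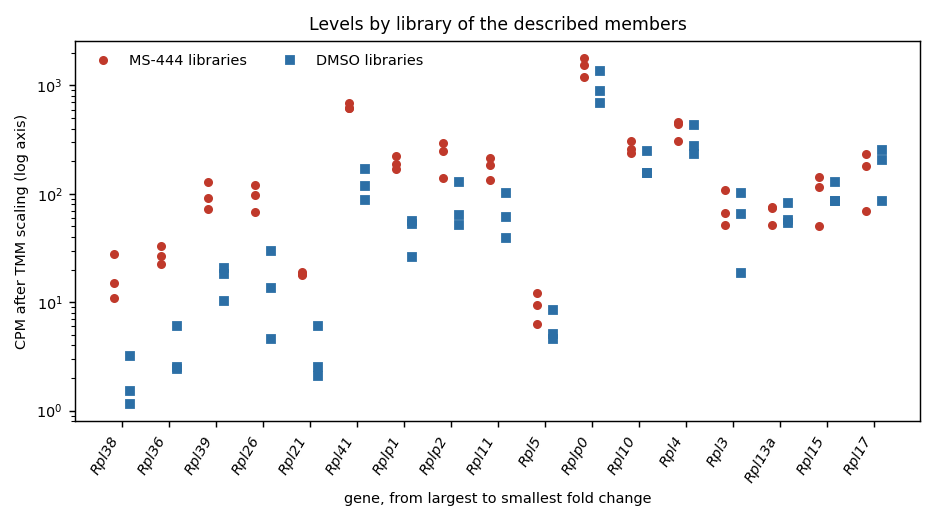
CPM after TMM scaling of the 17 members described library by library, on a log axis, with the 3 MS-444 libraries left of the 3 DMSO libraries for each gene. The MS-444 points of Rpl38, Rpl36, Rpl39, Rpl26, Rpl21, Rpl41 and Rplp1 lie wholly above the DMSO points, while those of Rpl13a, Rpl15 and Rpl17 mix with them.

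Levels differed widely between members even per length of transcript, although their proteins are built into the ribosome in equal numbers except in the stalk. On the scale of CPM per kilobase, Rpl41 (1189 ± 74.2 in MS-444 embryos, 231 ± 76.9 in DMSO embryos) and Rplp0 (1112 ± 219 and 725 ± 255) were the highest in MS-444 embryos (SD, n = 3 each). Rplp2 followed with 506 ± 179 in MS-444 embryos and 180.5 ± 91.6 in DMSO embryos, and Rplp1 with 389 ± 53.2 and 90.4 ± 32.7. Rpl41 and Rplp0 did not differ beyond their spread in MS-444 embryos, and neither did Rplp2 and Rplp1, whereas in DMSO embryos Rplp0 stood alone at the top. At the low end Rpl24 had 3.32 ± 2.89 in MS-444 embryos and 0.705 ± 0.681 in DMSO embryos, Rpl5 4.54 ± 1.42 and 2.95 ± 1.01, and Rpl29 6.06 ± 4.47 and 2.15 ± 1.24. These 3 did not differ beyond their spread in MS-444 embryos. In DMSO embryos Rpl24, with 0, 4 and 2 raw counts, lay below Rpl5 beyond their spread, while Rpl29 overlapped with both.

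Summed over the 45 members, the level was 5463, 7979.9 and 6267 CPM in MS-444 libraries and 3836, 3683 and 2112 CPM in DMSO libraries. All MS-444 libraries were above all DMSO libraries, and the means of 6570.1 ± 1285 CPM in MS-444 embryos and 3210.2 ± 954 CPM in DMSO embryos had a ratio of 2.05, or 1.03 on the log2 scale. Rplp0 and Rpl41 held much of this sum; without them the ratio was 2.10. The log2 ratio was 1.09 without MS-444 replicate 1, 0.81 without MS-444 replicate 2 and 0.76 without DMSO replicate 3, and with the GC and length correction it was 0.57. The members made up 0.565%, 0.828% and 0.685% of all counts in MS-444 libraries and 0.359%, 0.341% and 0.196% in DMSO libraries.

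**Figure D3:**
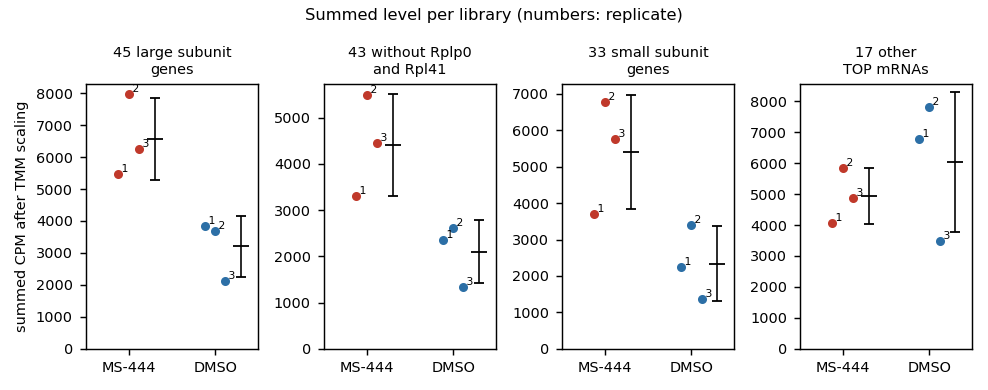
Summed CPM in each library, labelled by replicate, for all 45 large subunit genes, the same without Rplp0 and Rpl41, 33 small subunit genes and 17 other TOP mRNAs, with the mean and SD of each group and MS-444 left of DMSO. The MS-444 libraries lie above the DMSO libraries in the first 3 panels and within the DMSO range in the panel of other TOP mRNAs.

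The small subunit was used to see where the large one differed. Of its 33 listed genes 32 were tested, 19 rose and 0 fell, with a median of 1.49, and the summed level was 5409.7 ± 1566 CPM in MS-444 embryos against 2336 ± 1025 CPM in DMSO embryos, a ratio of 2.32. Rps21, for example, had 49.1, 75.0 and 59.7 CPM in MS-444 libraries and 13.2, 13.4 and 12.5 CPM in DMSO libraries, 2.23 ± 0.29 (edgeR adjusted p = 0.0026), and Rps26 rose by 1.87 ± 0.24. The large subunit sum over the small subunit sum was 1.48, 1.18 and 1.09 in MS-444 libraries and 1.72, 1.08 and 1.54 in DMSO libraries, which overlap. The small subunit count was as dependent on single libraries, with 8 genes higher without MS-444 replicate 2, 9 without MS-444 replicate 3 and 11 without DMSO replicate 3. Over all genes tested, 14.4% were called higher and 11.1% lower with all 6 libraries. Among the 19 that rose, Rps27 entered the test through the MS-444 libraries, where it was high, so its call is no independent support.

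Large subunit genes that the symbol list leaves out, paralogs for the most part, included 4 that rose. Rpl22l1, the close relative of Rpl22, was at 18.4 ± 1.69 CPM in MS-444 embryos and 4.72 ± 0.426 CPM in DMSO embryos (SD, n = 3 each), a log2 fold change of 1.96 ± 0.34 (edgeR adjusted p = 0.0056). Rpl39l, whose protein replaces Rpl39 in the testis, rose by 1.77 (adjusted p = 0.036), Rpl3l, the muscle relative of Rpl3, by 1.67 (adjusted p = 0.029) and Rpl7l1 by 1.36 (adjusted p = 0.017). Rpl3l had 18, 16 and 36 raw counts in MS-444 libraries and 4, 12 and 7 in DMSO libraries. It entered the test only through the MS-444 libraries, where it was high, so its call is no independent support. Rpl10l (1.68, adjusted p = 0.062) did not pass as reported but did in 8 of the 20 other processings, and Rpl36al had too few counts. With 1 library left out at a time, the value of Rpl39l without passing was 1.38 to 1.59 (without MS-444 replicate 2 or 3 or DMSO replicate 1 or 3). That of Rpl7l1 was 1.03 to 1.36 (without MS-444 replicate 2 or 3 or DMSO replicate 2 or 3), and Rpl3l did not pass whichever library was left out (1.41 to 1.90). With the GC and length correction neither Rpl3l (1.16, adjusted p = 0.081) nor Rpl39l (1.25, adjusted p = 0.061) passed; Rpl3l also missed the threshold with that correction and the replicate block (1.10) and with no filter on low counts (1.62, adjusted p = 0.05015). Of these 4 calls, only that of Rpl22l1 was kept with each library left out.

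The factors that assemble the large subunit were less uniform: of 52 genes, all tested, 15 rose and 2 fell, with a median of 0.75. The share that rose was 28.85%, where over all genes tested 14.4% were called higher and 11.1% lower. Of the 15, Gnl3l, Wdr74, Nle1 and Bop1 entered the test through the MS-444 libraries, where they were high. Their calls are therefore no independent support. Noc2l, a nucleolar protein of early large subunit precursors, had 104, 162 and 143 CPM in MS-444 libraries against 33.6, 9.90 and 25.3 CPM in DMSO libraries (2.59 ± 0.42, edgeR adjusted p = 0.0046). Efl1, the GTPase that with Sbds removes the last assembly factor eIF6 in the cytoplasm, had 2.93, 5.38 and 2.67 CPM in MS-444 libraries and 17.2, 21.6 and 29.3 CPM in DMSO libraries, and fell by 2.63 ± 0.42 (adjusted p = 0.0042). Its partner Sbds, named after its value was seen, was the other that fell, by 0.96 ± 0.27 (adjusted p = 0.029); it did not pass without MS-444 replicate 2 or 3 or DMSO replicate 2 (-1.03 to -0.83) or with library totals (-0.78). The count of assembly factors that rose was between 3, without MS-444 replicate 2, and 23, without DMSO replicate 1; it was 6 without DMSO replicate 2 and 7 without either MS-444 replicate 3 or DMSO replicate 3.

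Other mRNAs of the TOP class, which encode elongation and initiation factors and share the pyrimidine start with the members, had a median near that of all genes. Of 17, all tested, 2 rose, 1 fell and 14 did not pass, with a median of 0.03. The share that rose, 11.8%, was near the 14.4% of all genes tested, of which 11.1% fell. Pabpc1, the cytoplasmic poly(A)-binding protein, rose by 1.39 ± 0.28 (edgeR adjusted p = 0.0088) and Eef1g, an elongation factor subunit, by 1.35 ± 0.39 (adjusted p = 0.030); Eef1g was named after its value was seen and passed only with all libraries or without DMSO replicate 1 (1.05 to 1.504 without another). Eif4b, an initiation factor, fell by 1.02 ± 0.26 (adjusted p = 0.020), though not without MS-444 replicate 2 or 3 or DMSO replicate 3 (-1.07 to -0.88). Eef1a1, which brings aminoacyl-tRNA to the ribosome, had -1.12 (adjusted p = 0.068), and passed in 5 of the 20 other processings, among them without DMSO replicate 3 (-1.53). Their summed CPM in MS-444 embryos over DMSO embryos was 0.816, with overlapping libraries.

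Of 17 regulators of ribosome production, 16 were tested, 2 rose and 1 fell, with a median of 0.40. The share that rose, 12.5%, was near the 14.4% of all genes tested, of which 11.1% fell. These counts therefore show no change of the regulators as a group. Ubtf, a factor of RNA polymerase I on ribosomal DNA, rose by 1.44 ± 0.33 (edgeR adjusted p = 0.013), but not without MS-444 replicate 3 (1.17). Eif4ebp1, the repressor of the cap-binding protein eIF4E that mTOR switches off, rose by 1.60 ± 0.39 (adjusted p = 0.016), but not without MS-444 replicate 2 or 3 or DMSO replicate 3 (1.29 to 1.46). Tsc1, an inhibitor of mTOR named after its value was seen, fell by 1.10 ± 0.33 (adjusted p = 0.034), but not without any 1 of the MS-444 libraries or DMSO replicate 3 (-1.17 to -0.79) or with library totals (-0.91). Larp1, the protein that binds TOP mRNAs at their start, had 1.06 without passing (adjusted p = 0.070).

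Large subunit mRNAs are short, and short mRNAs as a class had higher values in MS-444 libraries. Among tested genes whose longest annotated transcript is under 1000 bases, the median log2 fold change of genes other than the members was 0.67 and 26.1% of all 1081 were called higher. The 17 members of that class had a median of 2.01 and 12 of them rose. From 1000 to 2000 bases the other genes had a median of 0.22 and the 19 members one of 1.21, with 8 that rose. Of all tested genes in that class 18.95% were called higher. From 2000 to 4000 bases the other genes had -0.03 and the 7 members 1.67, with 6 that rose, where 13.7% of all tested genes were called higher. In each class that held members their median was thus above that of the other genes, which 16 of 17, 16 of 19 and 7 of 7 members exceeded, and with transcript length and GC content as a correction in the fit 24 members rose, with a median of 1.11. Within the 43 members, longer transcripts had smaller changes (Pearson r = -0.56 with log2 length, Spearman rho = -0.54, a description over genes of the same 6 libraries).

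**Figure D4:**
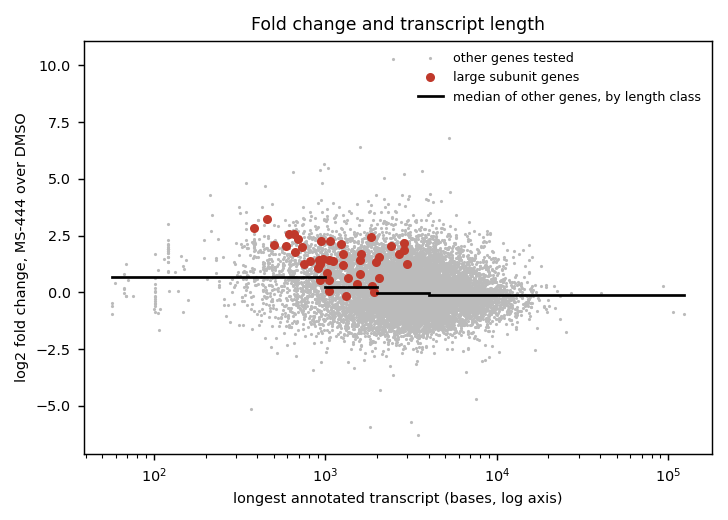
Log2 fold change of MS-444 over DMSO against the longest annotated transcript of each tested member, on a log axis; grey dots are the other tested genes and black lines their class medians. Most members lie above the line of their class, which is 0.67 under 1000 bases, 0.22 from 1000 to 2000 and -0.03 from 2000 to 4000.

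Ribosomal protein genes have many processed pseudogenes with almost the same sequence, and how the counting treated reads that match several copies is not stated in the sources used here, so levels of single members are uncertain. The table holds 287 other rows that match a member's coding sequence with at least 95% identity over at least 80% of it: 39 for Rpl21, 28 for Rpl7a, 20 for Rpl17, 18 for Rpl29 and 13 for Rpl23a, but 0 for Rpl8, Rplp2 and Rpl22. Their counts equalled 24.0%, 24.3% and 21.8% of the members' own counts in MS-444 libraries, and 36.6%, 32.97% and 19.1% in DMSO libraries. The 3 copies of Rplp0 alone held 52.4% to 60.6% of these counts in MS-444 libraries and 58.5% to 70.7% in DMSO libraries. Leaving out Rplp0 and its copies, the share was 12.3% to 14.95% in MS-444 libraries and 11.8% to 16.7% in DMSO libraries. For some members that rose it was far larger. Copies of Rpl26 had 144, 399 and 87 counts in DMSO libraries, against 34, 130 and 18 for Rpl26 itself. In MS-444 libraries they had 140, 546 and 376, against 187, 330 and 493. Copies of Rpl34 had 74, 200 and 192 counts in MS-444 libraries, against 70, 98 and 68 for Rpl34. In DMSO libraries they had 19, 91 and 14, against 12, 30 and 17. Of the 21 tested members with 6 or more such copies in the annotation 12 rose, with a median of 1.41, and of the 20 with 1 to 5 copies 12 rose, with a median of 1.47. With the counts of the copies added to their members 26 still passed. Rpl26 (1.43, adjusted p = 0.051), Rpl7 (1.38) and Rpl37 (0.57) then no longer did, and others took their place; that processing was chosen after seeing the data.

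Promoters of 34 of the 45 members, in 40 windows of 250 bases before to 50 after a start, were in the RefSeq table. A C followed by pyrimidines, 8 or more in all, on the gene's strand and within 30 bases of the start, was found in 52.5% of these windows and in 18.3% of 21223 windows of other protein-coding genes. CCGGAAG on either strand was in 35.0% against 11.5%, AAGATGG (the core of YY1 sites) in 15.0% against 6.22%, GGGCGG in 65.0% against 46.2%, CACGTG (the E box) in 17.5% against 7.82%, while TATAAA was in 4 of the 40 windows, against 12.6% of the others. Some genes have several overlapping windows and count more than once. The 6 windows with AAGATGG belong to 4 of the 34 genes, and the 7 with CACGTG to 5. The most frequent differences from other genes, the run and CCGGAAG, were set beside the members' fold changes. Of the 20 tested genes with a pyrimidine run near an annotated start 11 rose, with a median of 1.40. Of the 13 where none was found there 9 rose, with a median of 1.67. Of the 14 with CCGGAAG 10 rose (median 1.45), and of the 19 without it 10 (median 1.39). Among the 6 sequences shown at the start, Rpl15 and Rpl27a carry longer runs than Rpl38, and in Rpl41 and Rplp0 none was found near the annotated start. A run at a start other than the annotated one would be missed.

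Markers of the embryo and of cells that could accompany it were read beside these changes. The summed level of 8 maternal oocyte transcripts, all tested, was 2082 to 2423 CPM in MS-444 libraries and 4039 to 6438 CPM in DMSO libraries, and that of 9 transcripts typical of the 2-cell stage 1676 to 2135 CPM in MS-444 libraries and 1459 to 2214 CPM in DMSO libraries. Both lists were thus expressed in every library, as the tissue label has it. Bmp15 held most of the maternal sum, with 1628 ± 156 CPM in MS-444 libraries and 3821 ± 1160 CPM in DMSO libraries (SD, n = 3 each). Bmp15, Zp2, Gdf9, Nlrp5 and Padi6 fell, while Zp3, Ooep and Mos did not pass. In the 2-cell list only Eif1a passed, and it rose (1.92, edgeR adjusted p = 0.0086). Cumulus and granulosa cell markers, 10 of 12 with a row and 3 tested, summed to 24.5 to 27.5 CPM in MS-444 libraries and 11.3 to 12.8 CPM in DMSO libraries; most of this was Amhr2 in MS-444 libraries (16.7 ± 2.14 CPM, against 2.65 ± 0.748 CPM in DMSO libraries; SD, n = 3 each). Amhr2 rose by 2.66 (edgeR adjusted p = 0.0036). Tnfaip6 was higher in every MS-444 library than in any DMSO library, without passing (1.84, edgeR adjusted p = 0.073). In DMSO libraries Amhr2 had 7, 8 and 13 raw counts and Tnfaip6 7, 2 and 2. Both entered the test through the MS-444 libraries, where they were high, so their values are no independent support. Cyp19a1 went the other way, with 3.25 ± 0.802 CPM in MS-444 libraries and 6.48 ± 1.14 CPM in DMSO libraries, without passing (-1.02, edgeR adjusted p = 0.11). Ptx3 had 0 counts in all MS-444 libraries and 1, 0 and 0 in DMSO libraries, too few to compare. Blood markers (4 of 6 with a row) summed to 9.89 to 26.0 CPM in MS-444 libraries and 2.04 to 7.37 CPM in DMSO libraries, nearly all of it Hba-a1, fibroblast markers (4 of 5) to 3.15 to 5.50 and 1.38 to 2.80 CPM, and sperm markers (6 of 7) to 4.18 to 4.85 and 1.20 to 6.68 CPM. The part of maternal transcripts or other cells in the members' values was not tested.

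Across 20 other ways of processing the counts, 11 of the 26 members that rose did so every time: Rpl12, Rpl14, Rpl21, Rpl30, Rpl34, Rpl35, Rpl36, Rpl38, Rpl39, Rpl41 and Rplp1. With each library left out in turn the same 11 and Rpl26 passed. Of these, Rpl21, Rpl36 and Rpl38 entered the test through the MS-444 libraries, where they were high, so their calls are no independent support. Rpl9 (1.51 and 1.67), Rpl18 (1.11 and 1.21), Rpl23 (1.88 and 2.07), Rpl27 (1.70 and 1.90) and Rpl37a (1.51 and 1.63) did not pass without MS-444 replicate 2 or without MS-444 replicate 3. Rpl22 (1.33) and Rpl35a (1.80) did not pass without MS-444 replicate 2 alone. Rpl28 (1.05 to 1.33) and Rpl31 (1.13 to 1.28) did not pass without MS-444 replicate 2 or 3 or DMSO replicate 1 or 3. Rpl7 was lost in 7 of the 20, with each library but DMSO replicate 1 left out (0.97 to 1.57) and with pseudogene counts added. Rpl37 was lost in 8, with each library but DMSO replicate 2 left out (0.91 to 1.40), with the GC and length correction, alone or with the replicate block (0.66 and 0.64), and with the near-identical copies added (0.57). Of the 17 that did not pass, 9 passed in at least 1 of the 20: Rpl6, Rpl10a, Rpl13, Rpl19, Rpl23a, Rpl27a, Rpl32, Rpl36a and Rplp0.

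**Figure D5:**
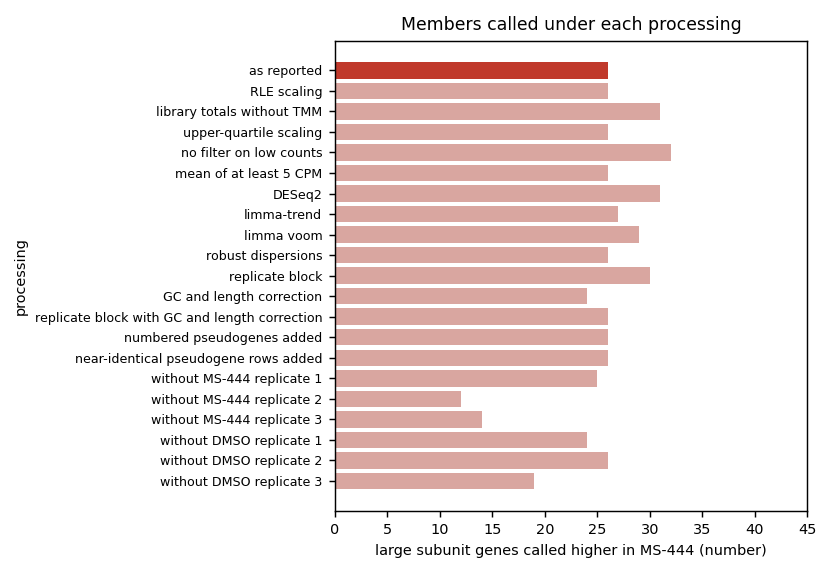
Number of large subunit genes called higher in MS-444 embryos under the processing reported and under each of 20 others. The bars lie between 24 and 32 where all 6 libraries are used and between 12 and 26 where 1 library is left out.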

How the data were processed

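The deposited table holds raw counts per Ensembl gene, 1 column per library, as judged from its whole-number values. The submitters' processing notes name HISAT2 4.8.2, Cufflinks 2.2.1 and build mm9 without roles; the annotation, the counting program and its use of strand and multiply mapped reads are not stated in the sources used here. Per the labels' protocols, full-length cDNA was amplified by PCR before tagmentation; molecular identifiers are not mentioned.

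Symbols were matched for 29075 of 29139 identifiers (GENCODE M21). Genes kept by filterByExpr (minimum count 10), 11864 with 98.8% to 99.3% of each library's counts, were fitted in R 4.3.3 with edgeR 4.0.16 (TMM, quasi-likelihood, 2 groups of 3, two-sided, Benjamini-Hochberg over all, threshold 0.05). Standard errors were derived from log2 fold changes and F values. DESeq2 1.42.0 and limma 3.58.1 served as alternatives. The fits were tested on simulated data. Pseudogene copies were found with BLAST 2.17.0. Levels per kilobase use the median principal transcript, length classes the longest one (99.8% of tested genes had a length). No 2 libraries agreed within sampling noise.

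Members and gene lists were chosen with earlier results of these data known. Given in full were the 6 members with the largest and the 6 with the smallest fold changes, the 4 most abundant per length, and Rplp0, Rplp1, Rplp2, Rpl5, Rpl11, Rpl10, Rpl39 and Rpl41 for their roles, and of each other list the 2 passing genes with the smallest adjusted p, or all of a list under 10 genes. Some marker genes and the promoters of 11 members were not analysed here, and some genes of the list of other large subunit genes are not reported here.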

Additional observations from a re-analysis of the deposited data

How the results depend on the processing

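No member was called lower under any of the 20 alternatives, and the members' median stayed between 1.11, with a GC and length correction, and 1.83, without DMSO replicate 2. With all 6 libraries, 24 to 32 members rose; with 1 library left out, 12 to 26, while all genes called numbered 1171 to 3820 (659 to 2099 higher, 500 to 1721 lower), and the other lists had 14 to 45 genes higher and 1 to 6 lower. Scaling by library totals moved the median of all genes from 0.02 to 0.20 and gave 881 genes lower in place of 1322, 2 of them in the other lists. The GC and length correction gave 2055 lower, 9 in the other lists, and a log2 ratio of the members' sums of 0.57; combined with the replicate block it gave 2019 lower, again 9 in the other lists. Of all calls, 56.3% were higher as reported, 71.2% with totals and 43.9% with the correction.

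Signs turned only for members that had not passed. The Rpl17 log2 fold change was 0.029 with totals and -0.58 to 0.14 with 1 library left out. The Rpl15 log2 fold change was -0.016 without a filter, -0.070 with limma-trend, -0.041 with limma-voom, -0.040 with the replicate block, -0.16 with the correction, -0.25 with block and correction, and -0.33 to 0.31 with 1 library left out. The Rpl13a log2 fold change was -0.55 with the correction, -0.54 with block and correction and -0.10 to 0.20 with 1 library left out, and the Rpl3 log2 fold change was -0.19 to 0.79. The cause was not tested.

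The deviations of same-numbered libraries from their group means correlated at 0.06, 0.38 and -0.10. MS-444 replicate 2 correlated best with DMSO replicate 2, but MS-444 replicate 1 did so with DMSO replicate 3 (0.37). MS-444 replicate 3 correlated best with DMSO replicate 2 (0.29). Deviations within groups of 3 cannot decide whether the libraries were paired. With the replicate block 30 members rose and, over all genes, 1971 were called higher and 1434 lower.

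Single-gene values of scarce members are limited by depth: those of Rpl38, Rpl36 and Rpl21, which have the fewest DMSO counts of the tested members and are among the largest fold changes, and those of Rpl5, Rpl24, Rpl27a and Rpl29.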
